A study of Rattus norvegicus with 6 samples.

Results

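The markers described here are 10 genes of Kupffer cells, the resident macrophages of the liver sinusoid, and of macrophages at large. They were chosen by symbol, and all 10 were found among the 32623 genes of the count tables, each under 1 identifier. RNA was sequenced from primary liver sinusoidal endothelial cells of Han Wistar rats after 48 h in a perfused device that also held hepatocytes, stellate cells and hepatic macrophages. The pathological group (12 mmHg) and the physiological group (1 mmHg) had 3 libraries each, both at a shear stress of 1.15 dyn/cm2, and the comparison addresses the effect of raised sinusoidal pressure on the endothelium. The labels do not say whether each library had its own animals or device run, and the p-values therefore measure only the spread between these libraries, which may be technical.

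Kupffer cells sit in the lumen of the sinusoid, where they take up particles, bacteria, complement-coated material and spent red cells. They depend on colony stimulating factor signals through the receptor Csf1r, and they are a main source of C1q, which opens the classical complement pathway. Endothelial cells were the cells labelled for sequencing, so the marker transcripts in these libraries come from bulk RNA. In such RNA, fewer macrophages, less RNA per macrophage and expression of these genes by other cells cannot be told apart. Macrophage transcripts and macrophage signal below mean the counts of these marker genes, whatever cell they came from.

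Library totals ran from 11426295 to 23754750 counts at pathological pressure and from 8925136 to 24025396 counts at physiological pressure. Levels are given as CPM, the counts scaled by the library total without further normalization. A count of 3 corresponded to between 0.125 and 0.336 CPM, and counting intervals and floors cover counting error only. Transcript lengths were not used, so levels are compared between libraries and not between genes. The hepatocyte transcript of albumin (Alb) measured 155, 301 and 26197 CPM in pathological replicates 1, 2 and 3, and at 56.6, 23840 and 12795 CPM in physiological replicates 1, 2 and 3. The libraries thus fell into 3 with Alb above 1000 CPM (pathological replicate 3 and physiological replicates 2 and 3), called Alb-rich here, and 3 below it, called Alb-poor. This division was made from the data and is not a group of the study. It coincided with depth. Totals were 11426295, 17117835 and 8925136 counts in these Alb-rich libraries, against 23649024 to 24025396 counts in the Alb-poor ones. Patterns along Alb therefore cannot be told apart from patterns along library total. Sinusoidal endothelial genes summed to between 526 and 8248 CPM at pathological and between 2685 and 7755 CPM at physiological pressure, with none of the 14 matched genes at 0 in any library.

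The 10 markers did not differ detectably between the pressures. Of the 10 markers tested, 0 passed an adjusted p of 0.05 with edgeR's quasi-likelihood test and Benjamini-Hochberg adjustment over 12742 genes, against 0% of all genes tested. At an unadjusted p under 0.05 there were 0 markers, against 0.259% of all genes, of which 0.0549% were higher and 0.204% lower at pathological pressure. DESeq2 also called 0 markers, against 0.252% of genes with a DESeq2 adjusted p. The CPM ranges of the groups overlapped for every marker, where 4.26% of all genes tested had groups that did not overlap, 0.973% higher and 3.29% lower at pathological pressure. Fold changes were below 0 for 8 markers and above 0 for 2, against 47.5% of all genes below 0 and 52.5% above. The median log2 fold change was -0.63 for the markers and 0.05 for all genes. What varied was the library: the summed CPM of the 10 markers was 579, 35.4 and 1195 at pathological pressure and 560, 1208 and 707 at physiological pressure. Pathological replicate 2 lay far below the other 5 libraries, and the pathological group held both its lowest value and one of the highest.

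**Figure D1:**
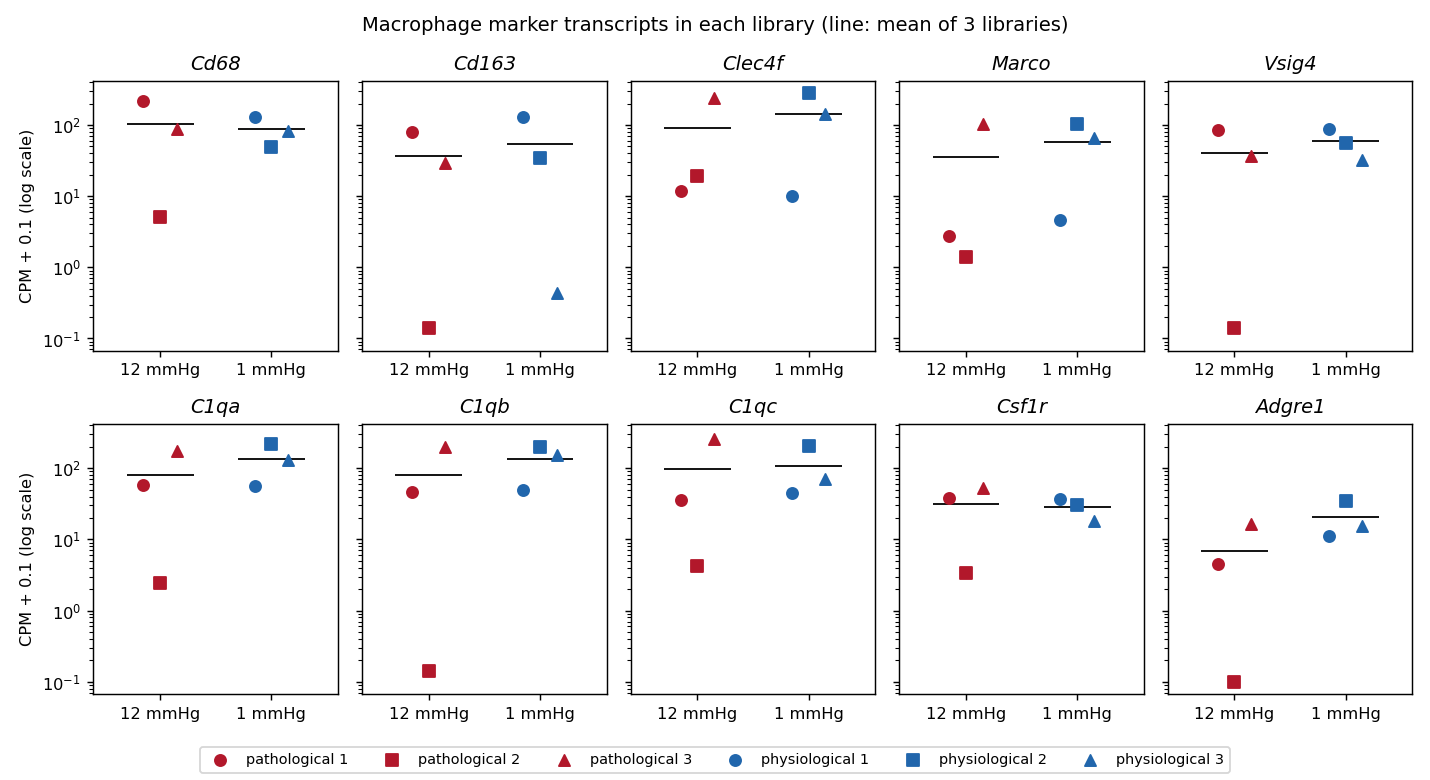
CPM + 0.1 on a log axis for each of the 10 macrophage markers, with 1 point per library, pathological (12 mmHg) in red and physiological (1 mmHg) in blue, and a line at the mean of 3 libraries. The groups overlap in all 10 panels, and pathological replicate 2 (red square) is the lowest point for 9 markers, Clec4f being the exception.

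The lectin Clec4f (ENSRNOG00000013137), a C-type lectin of rodent Kupffer cells that binds galactose-bearing glycans, is among the most restricted Kupffer markers. Clec4f stood at 11.8, 19.1 and 240 CPM in pathological replicates 1, 2 and 3 and at 9.99, 279 and 141 CPM in physiological replicates 1, 2 and 3. Each group thus held Alb-poor libraries under 20 CPM and Alb-rich libraries over 100 CPM. The means were 90.1 ± 129 CPM and 144 ± 135 CPM (SD, n = 3 each) at pathological and physiological pressure. The log2 fold change was -0.67 (95% CI -3.98 to 2.63, edgeR adjusted p = 1).

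The scavenger receptor Marco (ENSRNOG00000049303) binds bacteria and modified lipoproteins on macrophages. Marco measured 2.65, 1.31 and 104 CPM at pathological pressure, against 4.58, 105 and 65.8 CPM at physiological pressure. As with Clec4f, the 3 Alb-rich libraries were far above the 3 Alb-poor ones in either group. Its log2 fold change was -0.72 (95% CI -4.70 to 3.26, edgeR adjusted p = 1).

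The other scavenger receptor, Cd163 (ENSRNOG00000010253), clears complexes of haemoglobin and haptoglobin and followed a different order of libraries. Cd163 measured 80.6, 0.0423 and 28.9 CPM at pathological pressure, against 128, 34.6 and 0.336 CPM at physiological pressure. The lowest values rest on 1 count in pathological replicate 2 (Poisson 95% interval 0.00107 to 0.236 CPM) and 3 counts in physiological replicate 3 (0.0693 to 0.982 CPM). Each group therefore held 1 library nearly without Cd163, one of them Alb-poor and the other Alb-rich, and the highest value of each group lay in an Alb-poor library. Its log2 fold change was -0.44 (95% CI -5.02 to 4.14, edgeR adjusted p = 1).

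Cd68 (ENSRNOG00000037563), or macrosialin, is a glycoprotein of late endosomes and lysosomes in phagocytes. Cd68 measured 217, 4.99 and 86.7 CPM at pathological pressure, against 131, 48.6 and 82.2 CPM at physiological pressure. It was highest in the Alb-poor replicate 1 of either group and lowest in pathological replicate 2. The means were 103 ± 107 and 87.4 ± 41.7 CPM (SD, n = 3 each) at pathological and physiological pressure, and the log2 fold change was 0.15 (95% CI -2.32 to 2.61, edgeR adjusted p = 1).

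Adgre1 (ENSRNOG00000046254), the adhesion G protein-coupled receptor known as F4/80 in the mouse, had the most negative fold change of the 10. Adgre1 measured 4.42, 0 and 16.2 CPM at pathological pressure, against 10.9, 34.9 and 15.2 CPM at physiological pressure. The 0 in pathological replicate 2 allows a level of up to 0.127 CPM at 3 counts, and pathological replicate 3 lay inside the physiological range. The log2 fold change was -1.56 (95% CI -6.22 to 3.11, edgeR adjusted p = 1).

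Csf1r (ENSRNOG00000018414), the receptor for the macrophage growth factors CSF1 and IL-34, varied least among the markers after Vsig4 once pathological replicate 2 was set aside. Csf1r measured 37.5, 3.30 and 51.9 CPM at pathological pressure, against 36.3, 30.5 and 17.8 CPM at physiological pressure. Its highest over lowest level was 2.91-fold across the 5 libraries other than pathological replicate 2, against 2.70-fold for Vsig4 and 380-fold for Cd163. The log2 fold change of Csf1r was 0.17 (95% CI -2.44 to 2.78, edgeR adjusted p = 1).

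Vsig4 (ENSRNOG00000038132) is the complement receptor of the immunoglobulin superfamily, with which Kupffer cells capture particles coated with C3 fragments. Vsig4 measured 84.4, 0.0423 and 36.3 CPM at pathological pressure, against 87.7, 55.8 and 32.5 CPM at physiological pressure. It had 1 count in pathological replicate 2, and the other 5 libraries lay close together, highest in replicate 1 of either group. The log2 fold change was -0.58 (95% CI -4.23 to 3.07, edgeR adjusted p = 1).

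C1q is assembled from A, B and C chains, encoded by C1qa (ENSRNOG00000012807), C1qb (ENSRNOG00000012749) and C1qc (ENSRNOG00000012804). In the RefSeq gene table of assembly GRCr8, used for gene order, C1qc lies between C1qb and C1qa. C1qa measured 58.7, 2.37 and 177 CPM at pathological pressure, against 56.7, 218 and 131 CPM at physiological pressure. C1qb measured 45.6, 0.0423 and 198 CPM at pathological pressure, against 49.99, 198 and 151 CPM at physiological pressure. C1qc measured 36.2, 4.19 and 257 CPM at pathological pressure, against 44.4, 204 and 69.9 CPM at physiological pressure. All 3 chains were higher in every Alb-rich library than in any Alb-poor one, and pathological replicate 2 was the lowest for each. The log2 fold changes were -0.81 (95% CI -3.71 to 2.09) for C1qa, -0.75 (-4.73 to 3.22) for C1qb and -0.06 (-3.08 to 2.96) for C1qc, each with an edgeR adjusted p of 1.

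The chains did not keep 1 ratio in every library. C1qb held 32.5%, 0.641% and 31.4% of the C1q counts in pathological replicates 1, 2 and 3, against 33.1%, 31.9% and 42.9% in physiological replicates 1, 2 and 3. In pathological replicate 2 this was 1 count of 156 (exact binomial 95% interval 0.0162% to 3.52%), while C1qa had 56 and C1qc 99 counts there. C1qc held 25.8%, 63.5% and 40.6% at pathological pressure, against 29.4%, 32.9% and 19.9% at physiological pressure. The share of C1qa was steadier, at 41.8%, 35.9% and 28.0% at pathological pressure, against 37.5%, 35.1% and 37.3% at physiological pressure. These intervals take every count as an independent molecule, which amplified reads are not.

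**Figure D2:**
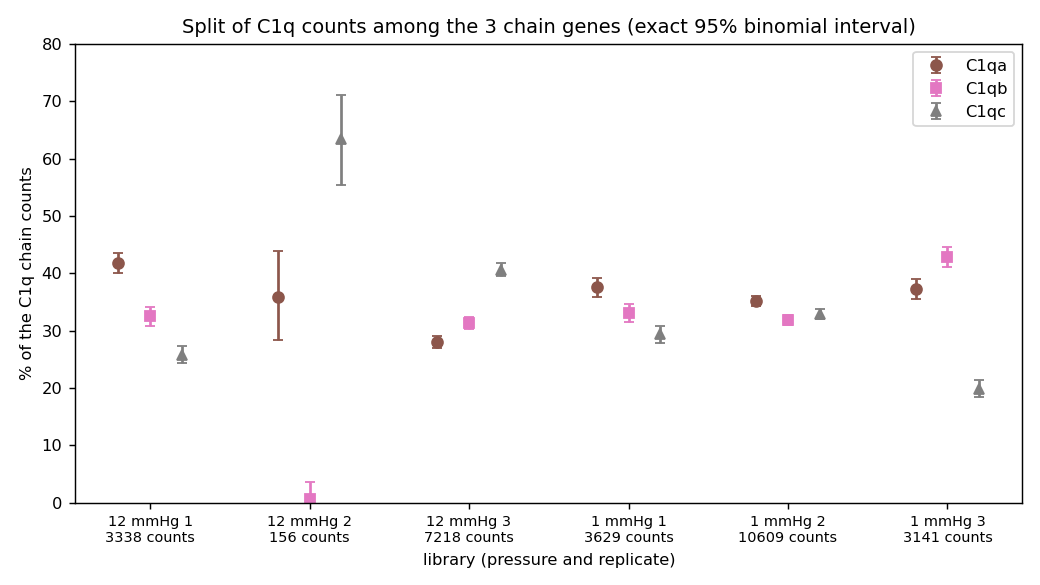
Percent of C1q counts from each of the 3 chain genes in each library, pathological libraries (12 mmHg) left of physiological ones (1 mmHg), with exact 95% binomial intervals and the number of C1q counts under each library. In pathological replicate 2 C1qb holds 0.641% of 156 counts, against 31.4% to 42.9% in the other 5 libraries.

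Stretches of 250 bases before the annotated start sites of 5 markers are shown because these genes were ordered differently over the libraries: C1qb, Marco and Clec4f followed Alb, and Cd68 and Cd163 did not. They come from RefSeq (GRCr8), where 9 of the 10 markers matched an entry, at chr5:154407828-154408077 (minus strand) for C1qb, chr13:34201256-34201505 (minus) for Marco, chr4:117696408-117696657 (minus) for Clec4f, chr10:54882442-54882691 (minus) for Cd68 and chr4:158770524-158770773 (plus) for Cd163. Capitals mark the letters GAGGAA, the core bound by the myeloid transcription factor PU.1, on either strand (TTCCTC on the other).
C1qb: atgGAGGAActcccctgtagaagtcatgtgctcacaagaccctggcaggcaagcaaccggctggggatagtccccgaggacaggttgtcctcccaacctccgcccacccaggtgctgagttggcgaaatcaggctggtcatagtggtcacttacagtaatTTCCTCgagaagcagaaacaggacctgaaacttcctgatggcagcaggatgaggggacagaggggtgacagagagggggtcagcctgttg
Marco: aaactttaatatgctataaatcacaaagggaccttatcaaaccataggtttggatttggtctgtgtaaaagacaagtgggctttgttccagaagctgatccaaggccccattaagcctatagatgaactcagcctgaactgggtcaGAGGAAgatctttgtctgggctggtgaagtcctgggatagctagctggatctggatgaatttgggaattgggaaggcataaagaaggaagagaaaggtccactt
Clec4f: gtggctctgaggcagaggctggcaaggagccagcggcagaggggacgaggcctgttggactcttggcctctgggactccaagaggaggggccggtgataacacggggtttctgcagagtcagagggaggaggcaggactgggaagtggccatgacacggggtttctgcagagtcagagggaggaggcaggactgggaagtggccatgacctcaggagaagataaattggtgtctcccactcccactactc
Cd68: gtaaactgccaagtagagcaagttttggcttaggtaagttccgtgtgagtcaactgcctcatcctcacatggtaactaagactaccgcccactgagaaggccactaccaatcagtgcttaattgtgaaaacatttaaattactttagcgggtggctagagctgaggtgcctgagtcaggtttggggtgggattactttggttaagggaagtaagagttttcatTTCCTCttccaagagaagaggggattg
Cd163: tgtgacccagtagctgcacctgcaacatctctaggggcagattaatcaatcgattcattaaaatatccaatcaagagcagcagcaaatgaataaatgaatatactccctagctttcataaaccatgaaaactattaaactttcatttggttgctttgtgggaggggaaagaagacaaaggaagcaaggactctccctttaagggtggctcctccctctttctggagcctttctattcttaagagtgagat
These letters occurred in 5 of the 9 marker stretches, C1qb, Marco, Cd68, Csf1r and Adgre1, and in 23.3% of 33469 stretches of the same length before all annotated starts. A match of 6 letters is a description of the sequence and not a binding site. Both the genes that followed Alb and those that did not included stretches with and without it.

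Set along the Alb level of the libraries, the markers fell into 2 patterns. For 6 of 10 markers (Clec4f, Marco, C1qa, C1qb, C1qc and Adgre1) the 3 Alb-rich libraries were all above the 3 Alb-poor ones, against 15.6% of all genes tested. For 0 markers were the Alb-rich libraries all below the Alb-poor ones, against 33.2% of all genes tested. The other 4 markers (Cd68, Cd163, Vsig4 and Csf1r) had no such order. Cd68, Cd163 and Vsig4 were highest in pathological replicate 1 and physiological replicate 1, the Alb-poor libraries with most macrophage transcripts, which 30.3% of all genes tested also were, so this share is near the background. The first pattern was not confined to macrophage genes. The Alb-rich libraries were also all above the Alb-poor ones for 15 of 15 hepatocyte genes and 8 of 14 sinusoidal endothelial genes. The hepatocyte count includes Alb itself, whose place was fixed by the division. The summed lymphocyte list had the same order, at 7.32, 4.06 and 113 CPM at pathological and 6.49, 56.2 and 119 CPM at physiological pressure. Much of that sum was Lck, at 2.99, 2.83 and 77.6 CPM at pathological and 4.58, 50.2 and 63.4 CPM at physiological pressure. Of 18 matched lymphocyte genes only 1 was tested. Genes at 0 numbered 8, 15 and 15 in pathological and 10, 14 and 15 in physiological replicates 1, 2 and 3, so the order is not one of the whole list. The part of these cell types in the marker pattern was not tested. No test was made of these patterns, since the division by Alb came from the data and coincided with that by library total.

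**Figure D3:**
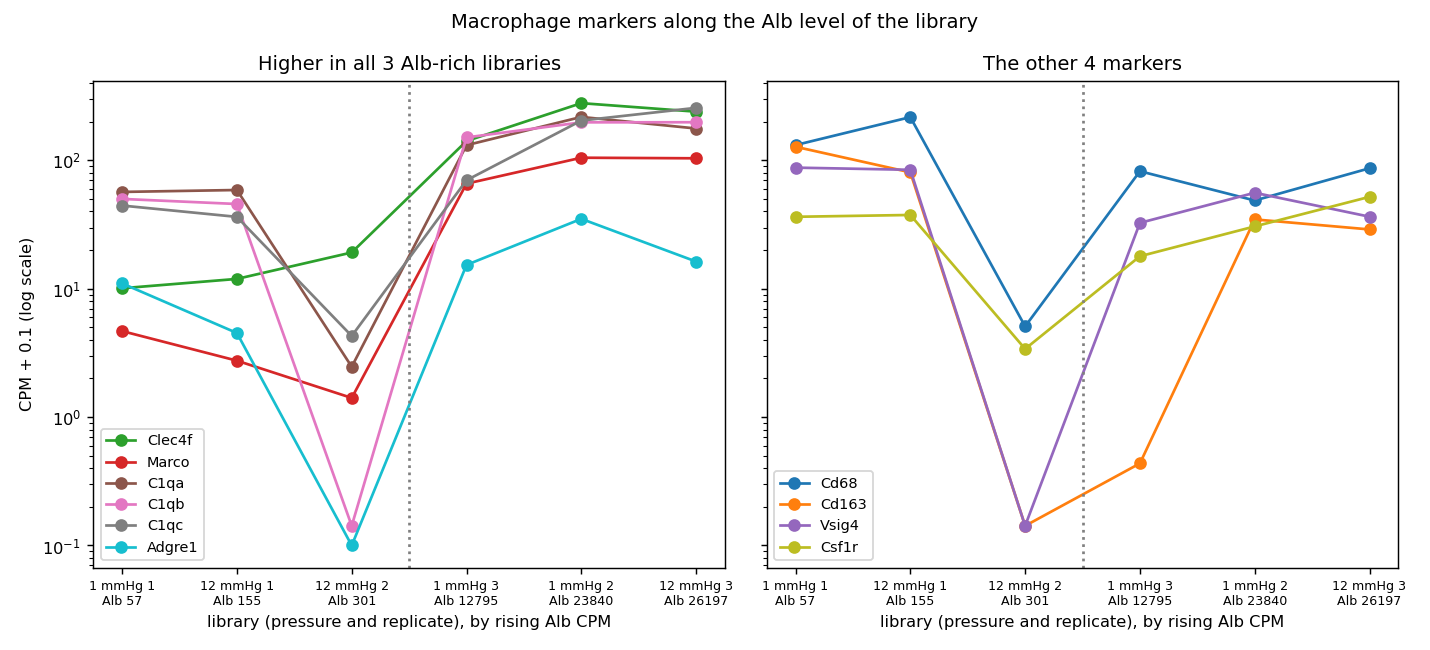
CPM + 0.1 (log axis) of each marker in the 6 libraries, ordered along the x axis by rising Alb CPM, which is printed under each library. Left, the 6 markers whose 3 Alb-rich libraries exceed all Alb-poor ones; right, the other 4, of which Cd163 falls to 0.336 CPM in physiological replicate 3.

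Per unit of Alb the macrophage signal was far from constant. The 10 markers together had 3738, 117 and 45.6 counts per 1000 Alb counts in pathological replicates 1, 2 and 3, against 9893, 50.7 and 55.3 in physiological replicates 1, 2 and 3. For this sum the 3 Alb-rich libraries thus lay close together, from 45.6 in the pathological library to 55.3. Single markers were less close. Cd163 had 1.10 counts per 1000 Alb counts in pathological replicate 3, against 1.45 and 0.0263 in physiological replicates 2 and 3. Cd68 had 3.31, against 2.04 and 6.43 in the same libraries. Marco had 17.1, 4.36 and 3.96 counts per 1000 Alb counts at pathological pressure, against 80.9, 4.40 and 5.14 at physiological pressure, so for this gene pathological replicate 2 stood beside the Alb-rich libraries. Clec4f had 76.4, 63.4 and 9.14 counts per 1000 Alb counts at pathological pressure, against 177, 11.7 and 11.1 at physiological pressure.

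The make-up of the macrophage signal differed between libraries as much as its size. Clec4f held 2.04%, 53.9% and 20.0% of the summed CPM of the 10 markers at pathological pressure, against 1.79%, 23.1% and 20.0% at physiological pressure. Cd68 held 37.5%, 14.1% and 7.26% at pathological pressure, against 23.5%, 4.02% and 11.6% at physiological pressure. Cd163 held 13.9%, 0.120% and 2.42% at pathological pressure, against 22.8%, 2.86% and 0.0475% at physiological pressure. The lysosomal and haemoglobin-scavenging transcripts thus had larger shares in replicate 1 of either group than in the Alb-rich libraries, and the lectin transcript a smaller one. There were 6.81, 0.00222 and 0.121 Cd163 counts for each Clec4f count at pathological pressure, against 12.8, 0.124 and 0.00238 at physiological pressure.

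**Figure D4:**
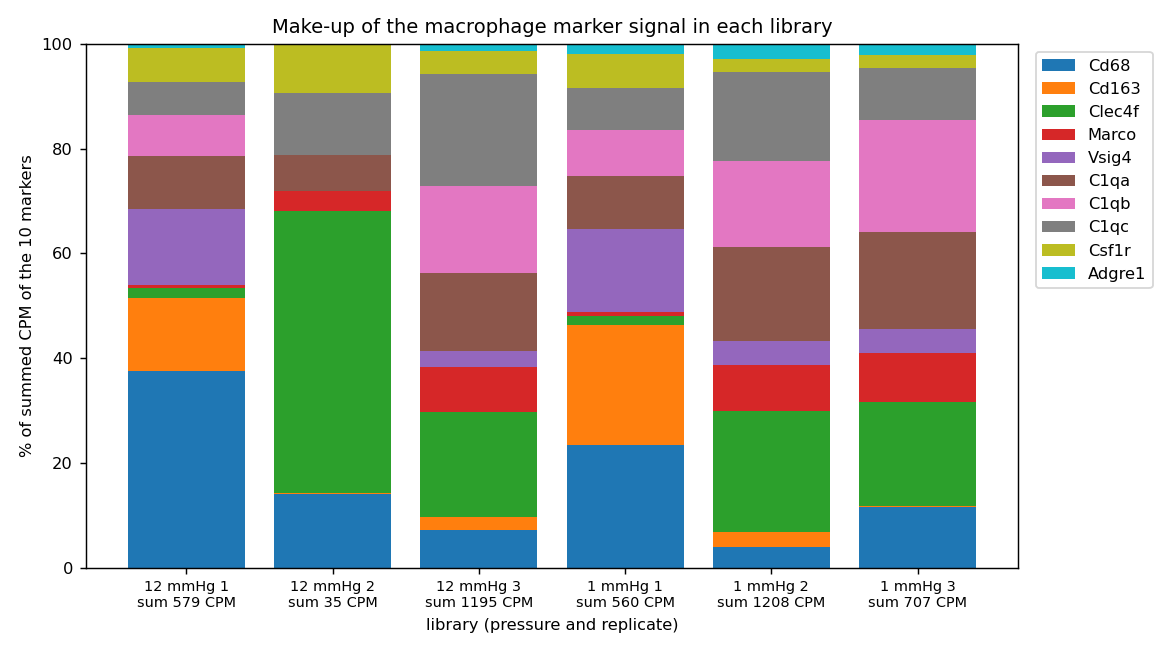
Stacked bars of each marker's percent of the summed CPM of the 10 markers, 1 bar per library, pathological (12 mmHg) left of physiological (1 mmHg), with the sum under each bar. Cd68 (blue), Cd163 (orange) and Vsig4 (purple) take larger shares in replicate 1 of both groups than in any Alb-rich library, and Clec4f (green) holds 53.9% of the small sum in pathological replicate 2.

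Within the Alb-poor and the Alb-rich libraries the markers also varied. Pathological replicate 1 over physiological replicate 1 gave ratios between 0.405 (Adgre1) and 1.65 (Cd68), with 4 markers above 1 and 6 below. Pathological replicate 3 was above both Alb-rich physiological libraries for 4 markers (Cd68, C1qb, C1qc and Csf1r) and between them for the other 6. With 1 library on a side, these ratios have no replicate check. Pathological replicate 2 was the lowest of the 6 libraries for 9 of 10 markers, against 17.0% of all genes tested, and lowest by over 3-fold for 8, against 5.70%. Its marker sum of 35.4 CPM stood far from the 579 and 560 CPM of the other Alb-poor libraries. Low sums there were not confined to the markers. Sinusoidal endothelial (526 CPM), stellate cell (420 CPM) and shared leukocyte and myeloid genes (495 CPM) also had their lowest sums in that library. So had other Kupffer, monocyte to dendritic cell, lymphocyte and cholangiocyte genes, while colony stimulating factor, complement and hepatocyte genes had not. In that library 4 markers (Cd163, Vsig4, C1qb and Adgre1) had at most 1 count, while Clec4f had 451.

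The fold changes had wide intervals and depended on single libraries. The 95% intervals spanned between 4.93 log2 units for Cd68 and 9.33 for Adgre1. Without pathological replicate 2, 5 of 10 markers had a fold change above 0, against 2 of 10 over all 6 libraries. Without pathological replicate 3, 1 of 10 was above 0. In that fit the log2 fold changes were -5.07 for Marco, -3.28 for Clec4f and -2.60 for C1qc. Their unadjusted p-values by edgeR were 0.0117, 0.0389 and 0.0484, and 0 markers passed the adjusted threshold. In the 3 Alb-rich libraries 8 of 10 were above 0, where the median log2 fold change of all genes was -0.58. In the 3 Alb-poor ones 1 of 10 was above 0, where that median was -0.1. Each of these fits has 1 library on a side, pathological in the Alb-rich and physiological in the Alb-poor libraries, which is assumed to vary like the others. With a term for log2 Alb in the edgeR fit, the log2 differences ran from -1.69 for Adgre1 (95% interval -6.46 to 3.07) to 0.11 for Csf1r (-2.50 to 2.73), each with an edgeR adjusted p of 1. The interval was narrowest for Clec4f, at -0.17 (-1.06 to 0.72), and widest for Cd163, at -0.21 (-5.54 to 5.12), while the median of all genes in that fit was -0.20. limma-voom with sample weights put all 10 markers below 0 and 6 at an unadjusted p under 0.05, against 8.09% of all genes on the lower side, with 0 past its adjusted threshold (0% of all genes). Its log2 fold changes were much further from 0 than those of edgeR, at -5.57 for Adgre1, -5.41 for C1qb, -4.55 for Marco, -3.45 for Vsig4, -3.31 for Clec4f, -3.12 for C1qa, -2.92 for C1qc and -1.97 for Cd163, while the median of all genes in that fit was 0.41.

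**Figure D5:**
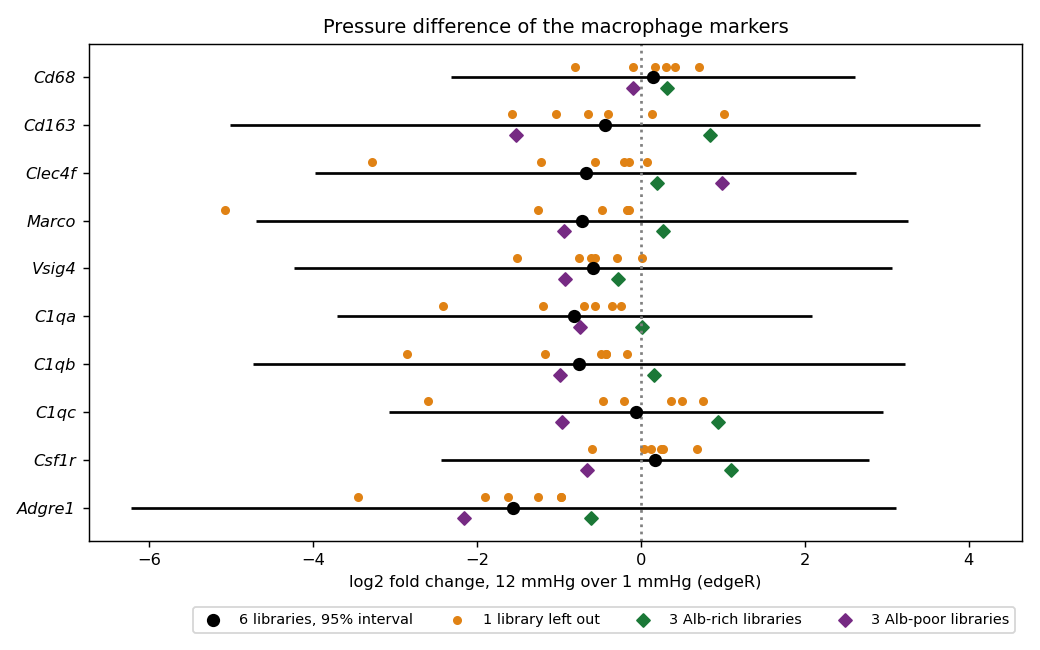
Log2 fold change of each marker, pathological (12 mmHg) over physiological (1 mmHg), from edgeR: black points with 95% intervals for all 6 libraries, orange points with 1 library left out, and diamonds for the 3 Alb-rich or 3 Alb-poor libraries alone. All 10 intervals cross 0, from -6.22 to 3.11 for Adgre1 to -2.32 to 2.61 for Cd68.

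Other Kupffer cell genes did not pass the threshold either. Of the 16 tested of 20 listed identity genes and regulators, 0 passed the threshold in either direction (edgeR), 7 had a fold change above 0 and 9 below, and the median was -0.06. In 6 of these 16 the Alb-rich libraries were all above the Alb-poor ones, against 15.6% of all genes, and 7 were lowest in pathological replicate 2. Unlike the markers, 2 of the 16 had CPM groups that did not overlap, against 4.26% of all genes, and both were lower at pathological pressure. Cd38, an NAD-consuming surface enzyme, measured 2.15, 3.43 and 0 CPM at pathological pressure, against 6.99, 11.2 and 16.2 CPM at physiological pressure. Il18, an inflammasome-dependent cytokine, measured 7.87, 0 and 0 CPM at pathological pressure, against 10.9, 12.3 and 12.9 CPM at physiological pressure. Cd5l, a secreted macrophage protein that binds lipids, measured 19.7, 2.20 and 210 CPM at pathological pressure, against 26.9, 117 and 88.0 CPM at physiological pressure, with the 3 Alb-rich libraries above the others as for C1qa. Slc11a1, the phagosomal metal transporter of macrophages, measured 262, 0.211 and 3.06 CPM at pathological pressure, against 167, 14.9 and 13.1 CPM at physiological pressure, and was high in replicate 1 of either group alone. Timd4, a receptor for phosphatidylserine that marks resident Kupffer cells in mice, had 0 counts in all 6 libraries. Cd5l, Slc11a1 and Timd4 were chosen after their values were seen. By the smallest unadjusted p of this list, the fold changes were -2.71 on the log2 scale for Cd38 (95% interval -7.72 to 2.30) and -2.47 for Il18 (95% interval -8.43 to 3.49), each with an edgeR adjusted p of 1.

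Genes shared by leukocytes and myeloid cells did not differ detectably between the pressures either. Of 24 tested of 30 listed, 0 passed the threshold (edgeR), 13 were above and 11 below 0, with a median of 0.07. Pathological replicate 1 and physiological replicate 1 were both above the other 4 libraries for 10 of the 24, against 30.3% of all genes, and the Alb-rich libraries were all above the Alb-poor ones for 6. The list summed to 3726, 495 and 2330 CPM at pathological pressure, against 2960, 2424 and 1516 CPM at physiological pressure. Fcgr2b, an inhibitory Fc receptor that sinusoidal endothelium also carries and that stands in the endothelial list too, accounted for 1337 CPM in pathological replicate 3 and 1095 CPM in physiological replicate 2. Gpnmb, chosen after its values were seen, accounted for 1600 CPM in pathological replicate 1 and 809 CPM in physiological replicate 1. It lay between 0.350 and 48.0 CPM in the other libraries. Ptprc, the pan-leukocyte phosphatase CD45, measured 57.5, 1.78 and 0 CPM at pathological pressure, against 36.0, 1.17 and 0.112 CPM at physiological pressure. It was chosen after its values were seen. The 3 Alb-rich libraries, which held most Clec4f, Marco and C1q, thus had at most 20 counts of Ptprc each. The Alb-rich libraries were all below the Alb-poor ones for 3 of the 24 genes, Ptprc among them, against 33.2% of all genes. Fcer1g had the opposite order, as did 6 of the 24 in all, against 15.6% of all genes. Fcer1g measured 59.8, 2.20 and 158 CPM at pathological pressure, against 45.4, 82.5 and 73.7 CPM at physiological pressure, and was also chosen after its values were seen.

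No change was detectable in the colony stimulating factor axis. Of 13 tested ligands, receptors and signal proteins of the 14 listed, 0 passed the threshold (edgeR), with 6 above and 7 below 0 and a median of -0.08. Csf1, the ligand of Csf1r, measured 41.9, 7.10 and 46.6 CPM at pathological pressure, against 101, 22.7 and 24.5 CPM at physiological pressure, and was named after its values were seen. Csf2rb, a shared receptor chain for granulocyte-macrophage colony stimulating factor, had the smallest p of the list, at -2.50 on the log2 scale (95% interval -7.65 to 2.66, edgeR adjusted p = 1).

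Among the complement genes around C1q, 0 of 24 tested of 29 listed passed the threshold (edgeR), with 6 above and 18 below 0 and a median of -0.54. Many of these are hepatocyte products, and the Alb-rich libraries were all above the Alb-poor ones for 14 of 24. C1r, the protease that C1q activates, measured 17.6, 10.7 and 156 CPM at pathological pressure, against 26.7, 101 and 93.6 CPM at physiological pressure, and C3, the central complement protein, 18.1, 10.4 and 912 CPM against 26.9, 1105 and 496 CPM. C1r and C3 were chosen after their values were seen. The smallest unadjusted p values of the list belonged to Cfb and C5, of which C5 was at -3.32 on the log2 scale (95% interval -8.07 to 1.42, edgeR adjusted p = 1). Cfb, a factor of the alternative pathway, stood under 2 identifiers with opposite fold changes, so its direction is uncertain. ENSRNOG00000000419, the one in the list, was at 5.28 for Cfb (95% interval -0.87 to 11.43), and ENSRNOG00000051158 was at -5.44 for Cfb (95% interval -10.36 to -0.52, unadjusted p = 0.0341 by edgeR), each with an edgeR adjusted p of 1.

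Many of the listed markers of other immune cells had 0 counts in each library. The list of monocytes, neutrophils and dendritic cells summed to between 5.29 and 40.5 CPM at pathological pressure and between 11.3 and 32.7 CPM at physiological pressure, with 10 to 15 of its 17 matched genes at 0 in each library. The monocyte receptors Ccr2 and Cx3cr1, named after their values were seen, had 0 counts in all 6 libraries. The list of T, B and NK cells summed to between 4.06 and 113 CPM at pathological pressure and between 6.49 and 119 CPM at physiological pressure, with 8 to 15 of 18 matched genes at 0. Hepatocyte genes summed to between 424 and 62907 CPM at pathological and between 287 and 46582 CPM at physiological pressure. Stellate cell genes summed to between 420 and 1578 CPM and between 1006 and 1336 CPM, and cholangiocyte genes to between 5.71 and 24.4 CPM and between 13.3 and 92.8 CPM, at pathological and physiological pressure. The part of these cell types in the marker levels was not tested.

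The genes most like the 10 markers over the 6 libraries were chosen by Pearson's r between their log2(CPM + 1) and the mean log2(CPM + 1) of the markers. That mean was 5.04, 1.45 and 6.41 at pathological pressure and 5.23, 6.47 and 5.38 at physiological pressure, so likeness chiefly means a low value in pathological replicate 2. The 10 nearest genes, with r between 0.989 and 0.995 over 6 libraries, were Ext1, Ino80e, Cenpb, Slc25a20, Tmem242, Maf, Nprl2, Cd74, Zfp94 and Hsd17b4. Maf, a transcription factor of resident macrophages and of sinusoidal endothelium, measured 22.8, 1.44 and 71.5 CPM at pathological pressure, against 22.2, 86.5 and 30.0 CPM at physiological pressure. Cd74, the invariant chain of antigen presentation, measured 104, 2.75 and 319 CPM at pathological pressure, against 96.1, 295 and 209 CPM at physiological pressure. The r values are given as a description, since all genes share the same 6 libraries and those libraries fall into clusters.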

How the data were processed

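Polyadenylated RNA was sequenced as single-end reads, per the labels' protocols. The authors deposited expected counts per gene, which are estimated read numbers with no scaling, per the file headers. The submitters' processing notes list STAR, RSEM and limma and no version of them. Genome build, annotation and strand setting: not given in the sources used here. Estimated counts share out reads that match several genes, and between 4.33% and 10.4% of the values in each library were not whole numbers. Antisense and overlapping genes are uncertain.

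Expected counts were rounded to whole numbers. CPM used plain library totals. Counts were compared with edgeR 4.0.16 in R 4.3.3 (TMM scaling, filterByExpr, quasi-likelihood F-test) with pressure as the only term, and 12742 of 32623 genes were kept. Two-sided p-values were adjusted after Benjamini and Hochberg, and 0.05 was the threshold. The fit was tested on simulated counts whose spread between libraries was set well below that of these data. That test therefore does not show how the fit performs at the spread found here. Over all genes the biological coefficient of variation came to 1.39 and the standard error of the log2 fold change had a median of 1.72. Low counts have exact Poisson intervals. Replicate numbers only name libraries.

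The members and lists were chosen with earlier results of these data known. Of 188 list symbols 182 matched. For 4 symbols with several identifiers (C4a, Cfb, Grb2 and Slc40a1) the first was used, so these list values cover only part of the counts under that symbol. Each marker had 1 identifier. The genes named by rule were all markers, Alb, the 2 smallest p values and highest mean CPM of each list, and the 10 genes most like the markers. Outside that rule, Cd5l, Slc11a1, Timd4, Gpnmb, Ptprc, Fcer1g, Csf1, C1r, C3, Ccr2, Cx3cr1, Xcr1, Cd8a and Gzma were named after their values were seen. Of the genes chosen by list, only those a result turns on are printed. Promoter stretches and gene order came from RefSeq tables of GRCr8, which may not be the build of the files. The alternatives were other scaling factors and filters, DESeq2 1.42.0, limma-voom (limma 3.58.1) with sample weights, a term for Alb, Alb-rich or Alb-poor libraries alone and leaving out each library.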

Additional observations from a re-analysis of the deposited data

How the results depend on the processing

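No marker passed the threshold under any alternative run, and all 10 markers were tested in each. The genes past the threshold numbered 0 with edgeR, 41 with DESeq2 and 244 in the 3 Alb-rich libraries alone, where 1 pathological library stands against 2. In the Alb-poor libraries 1 physiological library stands alone, and each lone library is assumed to vary like the others. Markers above 0 numbered 2 over all libraries, 8 in the Alb-rich and 1 in the Alb-poor libraries, 0 with limma-voom and sample weights, and between 1 and 5 with 1 library left out. The median log2 fold change of all genes was -0.58 in the Alb-rich and -0.1 in the Alb-poor libraries.

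Directions of single markers were not stable, and the cause was not tested. In the Alb-rich libraries the log2 fold changes turned to 0.85 for Cd163, 0.20 for Clec4f, 0.27 for Marco, 0.02 for C1qa, 0.16 for C1qb and 0.94 for C1qc. In the Alb-poor libraries they turned to -0.10 for Cd68, 0.99 for Clec4f and -0.66 for Csf1r. With limma-voom and sample weights they turned to -0.45 for Cd68 and -0.93 for Csf1r, and the other 8 markers moved to between -1.97 and -5.57. C1qc was 0.08 with RLE factors and with DESeq2. With 1 library left out the values ran from -0.80 to 0.71 for Cd68, -1.57 to 1.02 for Cd163, -3.28 to 0.08 for Clec4f, -1.51 to 0.01 for Vsig4, -2.60 to 0.76 for C1qc and -0.60 to 0.69 for Csf1r. Marco, C1qa, C1qb and Adgre1 stayed below 0 in those fits, down to -5.07 for Marco without pathological replicate 3.

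With limma-voom and sample weights the list medians moved to -2.05 for other Kupffer genes, -2.90 for complement, -5.18 for hepatocyte, -4.38 for endothelial and -3.64 for stellate genes. With 1 library left out they ran from -2.55 to 0.16 for complement, -5.56 to 0.17 for hepatocyte, -4.07 to -0.26 for endothelial and -3.84 to -0.05 for stellate genes. The cholangiocyte median, -3.44 over all libraries, was -0.73 with CPM above 1 in at least 3 libraries, -9.91 in the Alb-rich and 1.27 in the Alb-poor libraries. In the Alb-rich libraries 2 complement genes and 1 stellate gene passed the threshold, against 0 over all libraries, where 1.93% of all 12652 genes tested in that fit passed. Medians of lists with fewer than 5 tested genes were not used. TMM-scaled totals moved no library's summed marker CPM by more than the spread within its group.

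No paired analysis was possible because the labels share no number between the groups: they number the libraries 3, 9 and 23 at pathological and 2, 11 and 22 at physiological pressure, and do not say that neighbouring numbers belong together. Depth limits the lowest values, with 3 counts equal to between 0.125 and 0.336 CPM.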

Other observations

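Some lymphocyte and dendritic cell genes had their counts in 1 or 2 libraries while most of their lists stood at 0. These genes were picked after their values were seen, and no test was made. Xcr1, a chemokine receptor of dendritic cells, had 283 counts in pathological replicate 3 and 0 in the other 5 libraries. Cd8a, a co-receptor of T cells, had 244 counts in pathological replicate 3, 9 in pathological replicate 1 and 0 elsewhere. Gzma, a protease of cytotoxic lymphocytes, had 0 counts at pathological pressure, against 75 in physiological replicate 2 and 367 in physiological replicate 3. The complement factor Cfb stood under 2 identifiers whose counts lay in different libraries. ENSRNOG00000000419 had 61, 13 and 5669 counts at pathological pressure, against 62, 203 and 0 at physiological pressure. ENSRNOG00000051158 had 148, 280 and 0 counts at pathological pressure, against 101, 8604 and 2174 at physiological pressure. Taken by symbol, all 3 Alb-rich libraries therefore held over 1000 counts of Cfb, under one identifier or the other. The macrophage markers of the same libraries are given above, and Clec4f, Marco and C1q were high in all 3 of the Alb-rich libraries.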
